A study of Mus musculus with 13 samples.

Results

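Mammary fibroblasts were examined for 9 genes of the epidermal growth factor (EGF) system, the 4 ErbB receptor genes Egfr, Erbb2, Erbb3 and Erbb4 and the 5 ligand genes Nrg1, Hbegf, Areg, Ereg and Tgfa. They were taken by symbol, out of 32285 genes counted, and all 9 were present in the count matrices. Their transcripts were counted as unique molecular identifiers (UMIs, 1 per captured transcript) in 100523 fibroblast barcodes of 13 single-cell RNA-seq libraries. A barcode counted as a fibroblast when at least 50 of every 10000 UMIs came from Dcn, Lum and Col1a2 and none came from Epcam, Pecam1, Rgs5, Sox10, Ptprc or Myog, genes of epithelium, endothelium, pericytes, Schwann cells, leukocytes and muscle. The 880 epithelial barcodes of the same libraries served as a contrast.

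Single libraries of female wild-type C57BL/6 mice covered puberty (labelled as 4 weeks of age, and slightly older by the study's methods), the virgin adult (9 weeks), pregnancy (day 14.5), lactation (day 10) and involution (day 4). Another 2 libraries each came from wild-type C57BL/6 mice labelled as 9 weeks old that carried a placebo or MPA+E, that is, medroxyprogesterone acetate with estradiol. These 9 libraries held sorted stromal cells that lacked the lineage markers CD31, CD45 and TER-119 and also CD24. Each stage library pooled 2 females, and by the study's methods each placebo or MPA+E replicate did so too. The remaining 4 libraries were GFP+ cells sorted from the hyperplastic mammary gland and from the tumour of the same raGFP-Wnt1 mouse, aged 45 weeks (mouse 1) or 17 weeks (mouse 2). These mice carried Pdgfra-GFP KI/+ and MMTV-Wnt1 T/+ on a mixed C57BL/6 and FVB background. The MMTV promoter drives Wnt1 in the mammary epithelium, and the GFP knock-in reports the Pdgfra locus. The GFP sort was not absolute, with 76 epithelial barcodes left in hyperplasia 2 and 118 in tumour 2. Libraries held 4236 to 11951 fibroblast barcodes with a median of 3990 to 20256 UMIs each, and library pairs shared 5 to 51 barcode sequences. The gate was not perfect. Clusters of other cell types made up 1069 of the fibroblast barcodes (1.06%), among them 218 in pregnancy, 459 in MPA+E 2 and none in the raGFP-Wnt1 libraries, and member levels by library that moved by over 1.1 times without them are given both ways where first described.

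EGF-family ligands are made as membrane-anchored precursors and released by proteases such as ADAM17. Amphiregulin (Areg), epiregulin (Ereg), heparin-binding EGF (Hbegf) and transforming growth factor alpha (Tgfa) bind EGFR, with epiregulin and heparin-binding EGF also binding ERBB4, while neuregulin 1 (Nrg1) binds ERBB3 and ERBB4. ERBB2 has no known ligand of its own and acts as the preferred dimer partner, and ERBB3 has little kinase activity and signals through its partners. In the mammary gland, epithelial amphiregulin acting on stromal EGFR is a classical requirement for pubertal duct growth.

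In GRCm38 coordinates Egfr lies at chr11:16752203-16918158 (+), Erbb2 at chr11:98412470-98437716 (+), Erbb3 at chr10:128567523-128589652 (−) and Erbb4 at chr1:68032186-69108059 (−). Of the ligand genes, Ereg (chr5:91074622-91093646, +) and Areg (chr5:91139599-91148432, +) are neighbours, Tgfa lies at chr6:86195223-86275719 (+) and Nrg1 at chr8:31814551-32884029 (−). RefSeq promoter sequences (GRCm38.p6, 250 bases before to 50 after the start) were available here for 5 of the 9 genes. Shown are those of Egfr, the receptor gene that changed under MPA+E, and of Areg, the ligand gene that differed most between the 2 tumours, at chr11:16751953-16752252 (+) and chr5:91139349-91139648 (+). Capitals mark TGACGTCA, the full cAMP response element sequence, which reads the same on both strands.
Egfr promoter: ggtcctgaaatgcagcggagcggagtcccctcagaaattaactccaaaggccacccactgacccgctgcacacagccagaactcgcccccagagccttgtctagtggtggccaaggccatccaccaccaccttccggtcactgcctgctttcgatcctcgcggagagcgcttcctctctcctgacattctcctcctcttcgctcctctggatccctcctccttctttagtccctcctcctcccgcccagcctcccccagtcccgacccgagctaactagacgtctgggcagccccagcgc
Areg promoter: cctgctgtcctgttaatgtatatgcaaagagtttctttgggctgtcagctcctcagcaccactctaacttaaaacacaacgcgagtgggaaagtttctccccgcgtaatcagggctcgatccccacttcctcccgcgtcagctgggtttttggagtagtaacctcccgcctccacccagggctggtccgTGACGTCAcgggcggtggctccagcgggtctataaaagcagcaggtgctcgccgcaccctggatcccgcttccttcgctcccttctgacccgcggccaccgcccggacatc

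The Areg window held TGACGTCA once, beginning at position −61 from the start, and the other 4 promoter windows (Egfr, Erbb2, Erbb4 and Tgfa) did not hold it. Of 32851 mouse promoters of the same length, 588 (1.79%) held it. On either strand, the shorter site TGACG, which the full element contains, occurred in 20.8% of all promoters, the AP-1 sequence TGANTCA in 7.81%, the hypoxia element ACGTG in 19.6% and the progesterone receptor site TGTTCT in 19.0%. None of these sequences was found in the Egfr window, and the Areg window held none of the last 3. These are matches of letters and not measured binding.

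Of the receptor genes, Egfr was the one most fibroblasts carried. At least 1 Egfr UMI was found in 72.7% of fibroblast barcodes (exact Clopper-Pearson 95% interval 72.4 to 73.0%, counting error only), against 2.21% of endothelial and 7.87% of pericyte barcodes, which serve as the comparison for a level that free RNA could give. Median depth differed between these cells, with 7886 UMIs in fibroblasts, 2000 in endothelial cells and 3689 in pericytes. With every barcode thinned to 2000 UMIs, which left out 4226 shallower fibroblast barcodes, the shares were 37.1%, 2.93% and 3.79%. Erbb2 UMIs were seen in 6.91% of fibroblasts, but after thinning its 1.56% did not exceed the endothelial 2.56% or the pericyte 1.79%. No expression is read from the Erbb2 share, since free RNA in the suspension was not measured. Erbb3 UMIs occurred in 1.18% of fibroblasts (0.286% thinned) against 0.419% of pericytes (0.105% thinned). Erbb4 gave 8 UMIs in all 13 libraries together, at or below 2 in each, and no level or fold is given for it.

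Among ligand genes, Hbegf was the most widespread in fibroblasts, in 15.8% of barcodes (5.69% thinned). Pericytes carried it more often still, at 38.7% (27.4% thinned), and so did endothelial barcodes, at 22.1% (24.2% thinned), so the fibroblast share is not above that of these cells. Nrg1 was found in 3.24% of fibroblasts and Ereg in 2.39%, against 0.168% of pericytes each. Thinned shares of Nrg1 and Ereg were 0.826% and 0.814% in fibroblasts, and no pericyte of 949 kept a UMI of either gene. Tumours 1 and 2 gave 1573 and 975 of the barcodes with Nrg1 and 506 and 967 of those with Ereg. They gave only 2 and 5 of the pericytes. Outside the tumours the shares per library were 0.209 to 2.33% for Nrg1 and 0.0983 to 3.01% for Ereg. After thinning these were 0.0600 to 0.667% and 0.0599 to 1.22%. Tgfa reached 0.577% of fibroblasts, below the endothelial 1.10%, which rests on 6 UMIs. Pericytes went the other way, with 2 Tgfa UMIs in 1194 barcodes. Areg was in 0.305% of fibroblasts (0.0987% thinned), and pericytes thinned to the same depth gave 0.211%, from 2 of 949 barcodes, both in MPA+E 2. Outside the tumours the thinned Areg share was 0.00981 to 0.109% per library, and no difference between those libraries is read from it. Those UMIs sat in few cells. In placebo 2, for example, 21 of 5760 barcodes carried Areg with 4.95 UMIs each.

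Levels are given below as CPM, the UMIs of a gene per 1000000 UMIs of all fibroblast barcodes in a library, with exact 95% Poisson intervals that cover counting error only. Such a level moves both with the number of cells that carry a transcript and with the amount per cell, which a sum over cells cannot separate. Within a gene the levels of all 13 libraries were put in order, and neighbours with overlapping intervals were counted. Of 12 neighbouring pairs, Egfr had 3 that overlapped, Ereg 6, Nrg1 and Hbegf 7 each, Erbb3 and Areg 10 each, Erbb2 and Tgfa 11 each and Erbb4 12. Only Egfr was therefore ordered by most of its steps.

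**Figure D1:**
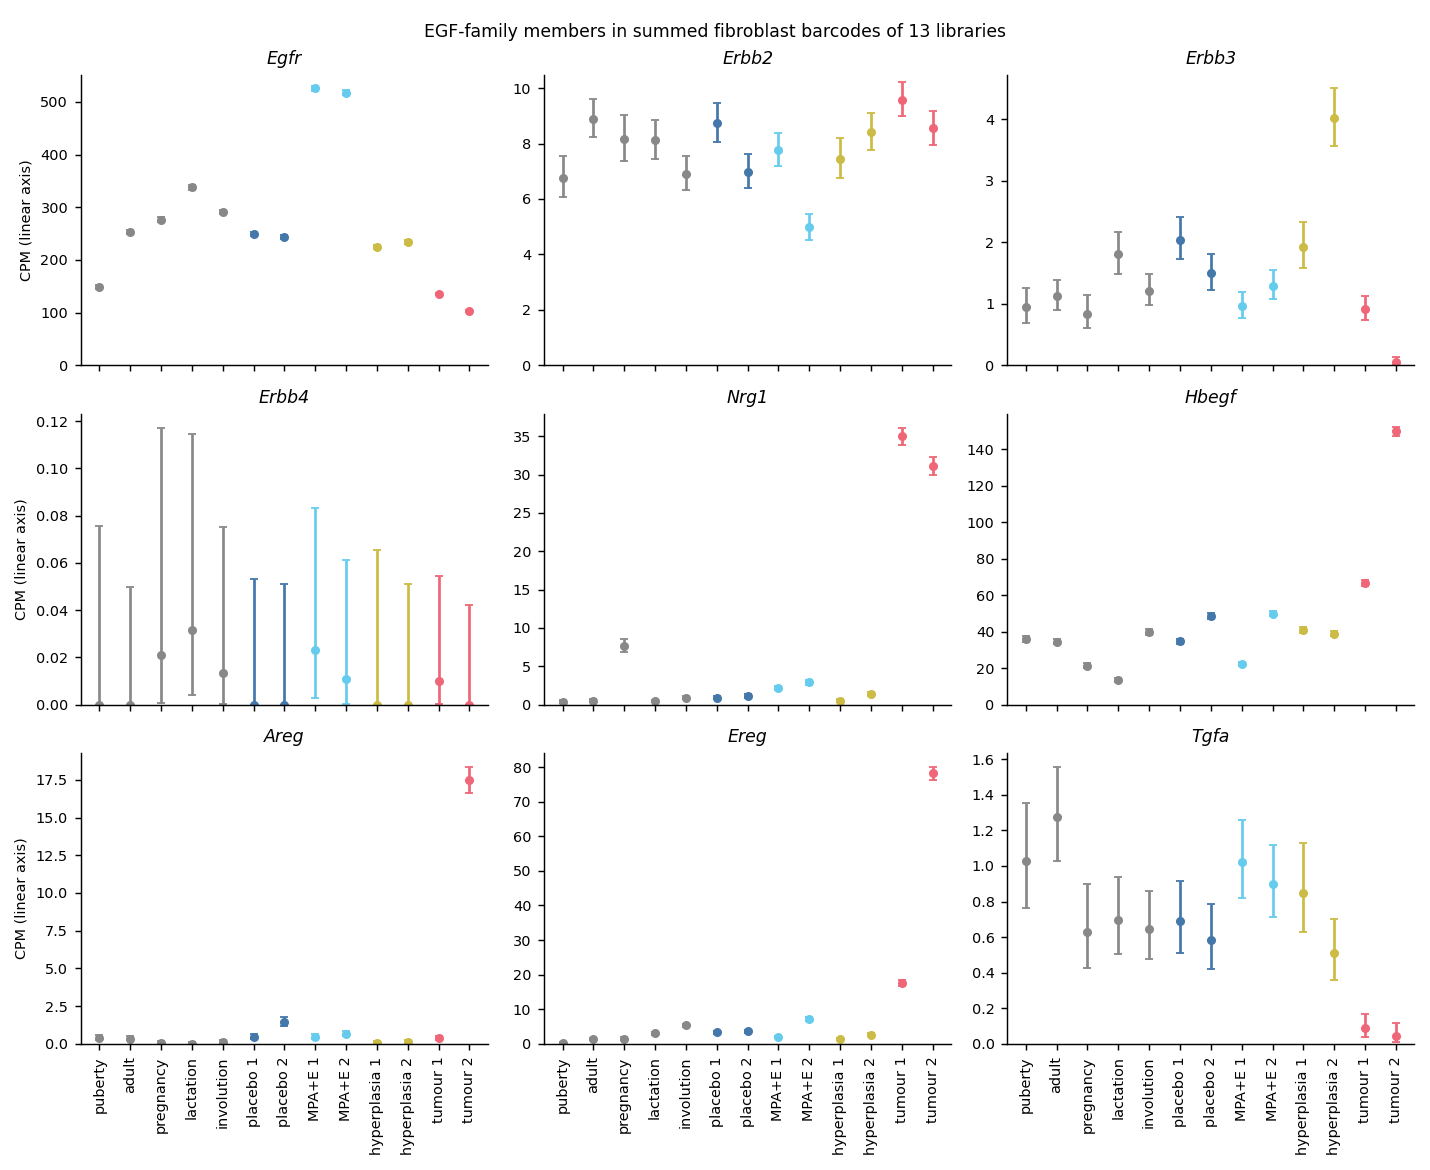
Levels of the 9 genes (CPM, linear axes that differ between panels) in the summed fibroblast barcodes of each of 13 libraries, with bars for the exact 95% Poisson interval. Egfr peaks in both MPA+E libraries at 526 and 517 CPM, Nrg1 stands at 35.0 and 31.1 CPM in the tumours, and Areg rises well above its other values in tumour 2 alone, at 17.5 CPM.

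Egfr encodes the receptor that binds most EGF-family ligands. Pubertal fibroblasts held 148 CPM, adult ones 253, those of pregnancy 277, of lactation 338 and of involution 290 CPM. Placebo libraries held 249 and 243 CPM, whereas MPA+E libraries held 526 and 517 CPM. Hyperplasia gave 225 and 235 CPM and the tumours 135 and 103 CPM. The MPA+E libraries were thus the highest of all 13 and the tumours the lowest, with puberty next above them.

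Erbb2 encodes the ligandless partner receptor. It was the flattest of the members, from 6.77 CPM (puberty) to 8.90 CPM (adult) over the stages, with pregnancy, lactation and involution at 8.16, 8.13 and 6.92 CPM. Placebo gave 8.75 and 6.99 CPM, MPA+E 7.78 and 4.98, hyperplasia 7.45 and 8.41, and the tumours 9.59 and 8.54. The highest and lowest of these differed by under 2-fold.

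Erbb3 encodes the neuregulin receptor with an impaired kinase. It stayed between 0.842 CPM (pregnancy) and 1.81 CPM (lactation) in the 5 stages, with puberty, adult and involution at 0.944, 1.12 and 1.21 CPM (puberty 0.774 CPM without the clusters of other cell types). Both placebo libraries (2.04 and 1.50 CPM) lay above both MPA+E libraries (0.965 and 1.29 CPM). Hyperplasia gave 1.93 and 4.02 CPM, and tumour 1 gave 0.917 CPM. In tumour 2 only 5 UMIs were counted (0.0570 CPM), the lowest value of the series for a gene that hyperplasia 2, from the same mouse, carried at its highest.

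Nrg1, the neuregulin gene, was near 1 CPM or below in most normal libraries, with puberty, adult, lactation and involution at 0.390, 0.474, 0.429 and 0.902 CPM. Pregnancy stood out at 7.66 CPM, but 317 of its 364 Nrg1 UMIs came from a single cluster of 145 barcodes with basal epithelial markers (354 CPM within it). Without the clusters of other cell types pregnancy was at 0.993 CPM, still the highest of the 5 stages but close to involution (0.902 CPM). Placebo gave 0.907 and 1.12 CPM, MPA+E 2.15 and 2.87, hyperplasia 0.496 and 1.34, and the tumours 35.0 and 31.1 CPM.

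Hbegf, the heparin-binding ligand, gave similar values in puberty and adult libraries (35.9 and 34.4 CPM), lower in pregnancy (21.3 CPM) and lactation (13.4 CPM), and 39.7 CPM in involution. Placebo libraries had 34.7 and 48.6 CPM and MPA+E libraries 22.3 and 49.7, so these groups overlapped. Hyperplasia was even at 40.9 and 38.9 CPM, and the tumours were at 66.7 and 150 CPM.

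Ereg encodes epiregulin. It was lowest in puberty (0.246 CPM, 12 UMIs), with the adult at 1.46 CPM, pregnancy at 1.52 CPM (1.27 CPM without the clusters of other cell types), lactation at 189 UMIs (1 UMI being 0.0159 CPM there) and involution at 5.29 CPM (393 UMIs). Placebo libraries (3.34 and 3.61 CPM) fell inside the span of the MPA+E libraries (1.88 and 7.10 CPM). Hyperplasia gave 1.45 and 2.65 CPM and the tumours 17.6 and 78.2 CPM. Outside the tumours Ereg remained at or below 7.10 CPM.

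Areg, the neighbour of Ereg, encodes the ligand known for pubertal duct growth. Fibroblasts of puberty held 18 Areg UMIs (0.369 CPM) and those of the adult 25 (0.339 CPM), while pregnancy had 2 (0.0421 CPM, and 0.0216 CPM without the clusters of other cell types), lactation 1 and involution 11. The 2 placebo values, 0.461 and 1.44 CPM, enclosed 1 of the 2 MPA+E values (0.460 and 0.669 CPM), and hyperplasia was at 0.0531 and 0.110 CPM. Tumour 1 was at 0.351 CPM, within the range of the normal libraries, and tumour 2 was at 17.5 CPM.

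Tgfa encodes another EGFR ligand. Its level lay between 0.511 (hyperplasia 2) and 1.27 CPM (adult) in the 11 libraries that were not tumours, with MPA+E at 1.02 and 0.899 CPM and placebo at 0.691 and 0.582 CPM. Tumours 1 and 2 had 9 and 4 Tgfa UMIs, that is, 0.0878 and 0.0456 CPM, both below every other library.

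The 5 developmental stages addressed how fibroblast genes follow the gland's cycle. With 1 library per stage there is no replicate check and no test, and differences are those between single libraries. Of the 9 members, 7 had a highest stage at least 2-fold above the lowest, against 38.2% of the 18772 genes with more than 3 UMIs in a stage. Egfr was 2.28-fold higher in lactation than in puberty and Erbb3 2.15-fold higher in lactation than in pregnancy (2.33-fold, with puberty lowest, without the clusters of other cell types). Hbegf went the other way in lactation, with involution 2.96-fold above it. Ereg was 21.5-fold higher in involution than in puberty, where it rested on 12 UMIs. Areg is among the 7 by its counts alone, and no fold is given for it, because 10 of its 18 pubertal UMIs lay in 0.189% of the 528 barcodes of a single cluster. Nrg1 gave 19.6-fold between pregnancy and puberty with, and 2.64-fold without, the clusters of other cell types. Tgfa gave 2.02-fold and Erbb2 1.31-fold.

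A list of 46 other genes of the pathway was read beside the members. In the stages 37 of them reached 10 CPM, and 13 of these had a 2-fold range, a share not above the 38.2% of all genes. That 38.2% was taken without the limit of 10 CPM, so the sets are not alike. The 13 were 7 of 14 inhibitors, 4 of 9 targets of ERK and 2 of 11 adaptors and cascade genes. Spry4, Spry1, Dusp6 and Etv1 were all lowest in puberty and highest in lactation. This did not hold for all 13, since the ERK target gene Phlda1 was highest in puberty (658 CPM) and lowest in lactation (294 CPM). Spry4 went from 7.37 to 39.1 CPM, Spry1 from 27.9 to 131 CPM and Dusp6 from 10.3 to 43.6 CPM. These genes encode feedback inhibitors of the ERK cascade. The ETS factor gene Etv1 had a 2.98-fold range (6.63 to 19.7 CPM).

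MPA+E against placebo asked what a progestin with estrogen does to these fibroblasts. Egfr rose from 246 ± 4.35 CPM (SD, n = 2) to 522 ± 5.86 CPM (SD, n = 2), a log2 fold change of 1.09 ± 0.11 (SE) with adjusted p = 0.0121 (edgeR's quasi-likelihood test, Benjamini-Hochberg over 15642 genes). It was the only member called of the 8 tested, where 4.33% of all genes tested were called, 2.69% as higher and 1.64% as lower. Both MPA+E libraries lay above both placebo libraries, with a gap far wider than that within either pair. Nrg1 was higher in both MPA+E libraries, at 2.51 ± 0.513 against 1.02 ± 0.153 CPM (SD, n = 2 each), but its log2 fold change of 1.32 ± 0.28 missed the threshold (adjusted p = 0.0838, edgeR). With DESeq2 the Nrg1 difference passed (adjusted p = 0.00401). With either placebo library left out Egfr kept its size (1.04 and 1.14) and missed the threshold in edgeR, at adjusted p = 0.114 without placebo 1 and 0.0932 without placebo 2, when 22 and 42 genes in all were called.

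The remaining members did not pass the test under MPA+E. Erbb3 had a log2 fold change of −0.62 (adjusted p = 0.317), Tgfa of 0.60 (0.266), Erbb2 of −0.30 (0.553), Areg of −0.76 (0.610), Ereg of 0.41 (0.811) and Hbegf of −0.19 (0.879), all by edgeR. The groups did not overlap for 4 of the 8 members (Egfr, Erbb3, Nrg1 and Tgfa), where 43.6% of all genes tested did not. None of the 43 pathway genes tested was called by edgeR. An unadjusted p under 0.05 was found for 7, and nothing is read from it, since no share over all genes is given. DESeq2 called 5 of the 43 and the fit with the replicate block 12. Both fits also called more genes in all than edgeR, as given below under the dependence on processing. Markers of other cells moved beside these values. The summed level of 5 luminal markers was 4.79 to 5.11 CPM under MPA+E and 26.3 to 29.8 CPM under placebo with Epcam at 0 by the gate. In placebo 1 Krt18 and Cldn4 were at 0 too, so its sum came from Krt8 and Krt19 alone. Krt19 was also among the leading genes of fibroblast clusters in pregnancy and MPA+E 1. The sum of 5 pericyte markers was 16.3 to 16.4 CPM under MPA+E against 37.0 to 38.4 CPM with Rgs5 at 0 (11.5 to 14.4 against 34.8 to 35.2 CPM without the clusters of other cell types). Their part in the results was not tested. Without the clusters of other cell types Egfr stood at 527 and 524 CPM under MPA+E and 249 and 244 CPM under placebo.

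**Figure D2:**
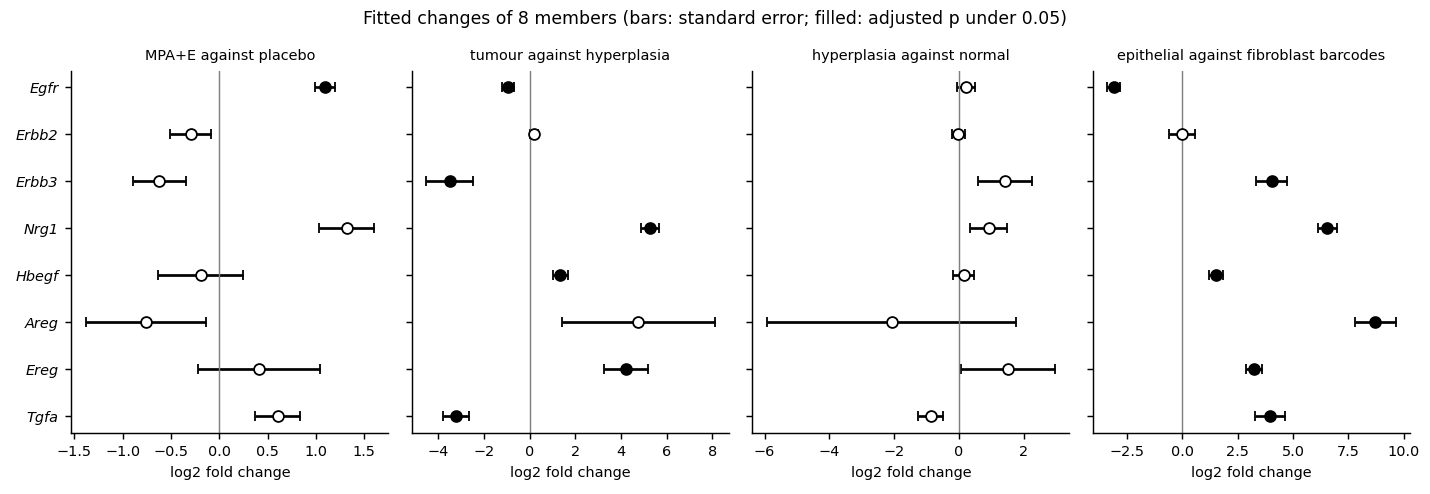
Fitted log2 fold changes of the 8 members tested in each of 4 comparisons, with bars for the standard error and filled points for adjusted p under 0.05 (x axes differ between panels). Under MPA+E only Egfr is filled, in tumours 6 members are filled, from −3.51 for Erbb3 to 5.27 for Nrg1, and none is filled for hyperplasia against normal.

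The Egfr difference under MPA+E was then followed through fibroblast classes. Each library was clustered by itself with the members, the pathway genes and the state markers left out, and clusters were then named from marker lists of the study's fibroblast states. A name could be given to 85 of 170 clusters, and 35.3% of fibroblast barcodes stayed unnamed. Cells of 1 library share their source, so the class values are a description with no test. In each of the 5 classes with at least 100 barcodes in every one of the 4 libraries, both MPA+E values of Egfr exceeded both placebo values, with ratios of means from 1.34 to 3.08. In the progenitor class Egfr was 605 and 467 CPM under MPA+E against 169 and 179 CPM, and in the adipogenesis-regulatory class 431 and 415 CPM against 140 and 139 CPM. The progenitor class of MPA+E 1 included a cluster led by Cxcl13 and Ifnb1. A cluster of MPA+E 2 led by the same genes stayed unnamed, at 772 CPM of Egfr, and is not counted here. The progenitor values may therefore not be of like cells. In the ECM remodelling class the values lay closer, at 483 and 363 CPM against 318 and 314 CPM. The clusters of that class had different leading genes, Igfbp2 and Pla2g7 in the largest of each placebo library, Slitrk1 and Gria1 in that of MPA+E 1 and Igfbp2 and Gria1 in that of MPA+E 2, so these values may not be of like cells. Preadipocyte and lobular classes fell between, with 606 and 557 against 359 and 351 CPM and with 486 and 498 against 323 and 265 CPM. Preadipocyte clusters were led by Car3 and Fabp4 in placebo 1 and by Fabp4 and Cd36 in placebo 2. Those of MPA+E 1 and 2 were led by Ptn and Fgf10 and by Scg3 and H19, so they too may not be of like cells. Nrg1 was above placebo in both MPA+E libraries in 3 of the 5 classes, with 4.62 and 5.33 CPM against 0.392 and 1.03 CPM in preadipocytes. Its placebo values were low in the other 2, at 0 and 0.200 CPM (lobular) and 0.212 and 0.277 CPM (progenitor). Tgfa was above in 2 classes and below in 1, and Ereg above in 1 and below in 2. No share over all genes is given by class, so nothing is read from these counts.

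Hyperplasia against normal (puberty and adult joined) compared the hyperplastic glands of mice that already bore a tumour with normal glands. Of 8 members tested, 0 were called by limma-voom and 0 by edgeR. With each tool 0 members passed even an unadjusted p of 0.05, while limma-voom called 14.0% of all 16302 genes tested. In simulated data the limma-voom fit recovered 5.21% of log2 changes of 1 and 72.4% of those of 2. An uncalled member may therefore still differ at such sizes. The libraries of 5 members (Erbb3, Nrg1, Hbegf, Areg and Tgfa) did not overlap between the groups, against 70.6% of all genes. Egfr had a log2 fold change of 0.22 ± 0.27 (SE), Hbegf 0.15 ± 0.32, Erbb2 −0.02 ± 0.19 and Nrg1 0.91 ± 0.56. Erbb3 was higher in both hyperplasia libraries (1.42 ± 0.83, adjusted p = 0.264, limma-voom) and Tgfa lower in both (−0.87 ± 0.38, adjusted p = 0.158, limma-voom). Areg and Ereg had wide errors, at −2.08 ± 3.85 and 1.51 ± 1.45. Strain, sort and age differ between these groups together with the tissue, and cannot be told apart from it.

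Of 44 pathway genes tested, 10 rose and 1 fell, where 7.70% and 6.29% of all genes tested did. Those that rose were 4 of 15 inhibitors, 3 of 11 adaptors and cascade genes, 2 of 10 ERK targets and 1 of 4 other ligands. Spry4, from 7.37 to 10.6 CPM in the normal libraries, was at 53.7 to 54.8 CPM in hyperplasia (log2 fold change 2.55 ± 0.23 SE, adjusted p = 0.00671, limma-voom). Spry1 rose by 1.94, Dusp6 by 1.77 and the ERK target genes Etv1 and Ier3 by 1.83 and 1.46 on the same scale. The neuregulin gene Nrg2 rose by 3.95, from at most 0.298 CPM to 2.32 and 2.81 CPM. Map2k2, a kinase gene of the ERK cascade, fell by 0.79. Without any one of the normal or hyperplasia libraries at most 183 genes in all were called, so the counts rest on each of the 4. Other markers differed too. Summed smooth muscle genes were 4.51 to 6.59 CPM in hyperplasia against 41.5 and 92.1 CPM in the adult and puberty (14.6 and 35.6 CPM without the clusters of other cell types), and immune markers 6.58 to 7.65 against 2.86 and 2.32 CPM, with Ptprc at 0 by the gate. Muscle markers were 0.726 to 1.33 CPM in hyperplasia against 4.62 and 8.39 CPM (3.87 and 5.08 CPM without those clusters), with Myog at 0 by the gate. Their part in the result was not tested.

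Tumour against hyperplasia compared cancer-associated with hyperplasia-associated fibroblasts of the same 2 mice. Of 8 members tested 6 were called, 3 of them higher and 3 lower, where 29.3% of all 16302 genes were called, 15.4% higher and 13.9% lower. The groups did not overlap for any of the 8, which was so for 72.2% of all genes. The genes that rose were all ligand genes, and those that fell were 2 receptor genes and a ligand gene. The fit was limma-voom on 6 libraries (puberty, adult, hyperplasia and tumour), and adjusted p in the next 5 paragraphs refers to it unless another tool is named.

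Nrg1 had the largest rise of the members called. It went from 0.917 ± 0.597 CPM (SD, n = 2) in hyperplasia to 33.0 ± 2.72 CPM (SD, n = 2) in tumours, a log2 fold change of 5.27 ± 0.39 (SE, adjusted p = 0.00208). The ratio within mouse 1 was 70.6 (exact 95% interval 48.7 to 106, counting error only) and within mouse 2 it was 23.2 (19.0 to 28.8). Nrg1 was the 1 member still called with either hyperplasia library left out, when 242 and 314 genes in all were called.

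Ereg and Hbegf also rose. Ereg was 12.1 times its hyperplasia level in mouse 1 and 29.5 times in mouse 2, with a log2 fold change of 4.21 ± 0.96 (SE, adjusted p = 0.0241). Hbegf was 1.63 and 3.85 times its hyperplasia level, with a log2 fold change of 1.33 ± 0.33 (SE, adjusted p = 0.0295), and it missed the threshold in a fit of the 4 raGFP-Wnt1 libraries only (adjusted p = 0.0611). In both mice the tumour was the higher sample, and mouse 2 gave the larger ratio for both genes.

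Areg differed widely between the 2 tumours. In mouse 1 it went from 3 UMIs to 0.351 CPM, a ratio of 6.61 (2.09 to 33.6) that rests on 11 tumour barcodes with 3.27 Areg UMIs each on average, and in mouse 2 from 0.110 to 17.5 CPM, a ratio of 158 (80.0 to 367). Its log2 fold change of 4.75 ± 3.34 (SE) was not called (adjusted p = 0.304). It was called with the mouse as a block (6.15, adjusted p = 0.0125, limma-voom) and by edgeR (6.67, adjusted p = 0.0389). With 1 tumour left in the group, whose spread is then taken from the other groups, the Areg value was set by which tumour stayed, at 7.62 for tumour 2 and 2.06 for tumour 1.

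Egfr, Erbb3 and Tgfa fell. Egfr went from 230 ± 6.94 to 119 ± 23.1 CPM (SD, n = 2 each), a log2 fold change of −0.96 ± 0.27 (SE, adjusted p = 0.0415). The tumour held 0.603 of the hyperplasia level of Egfr in mouse 1 and 0.438 in mouse 2. The Egfr call was lost when the fibroblast limit was raised to 100 UMIs per 10000 (adjusted p = 0.0517), without tumour 2 (adjusted p = 0.102) and without hyperplasia 1 or 2 (adjusted p = 0.175 and 0.151), its size staying between −0.98 and −0.73. Tgfa fell to 0.103 and 0.0892 of the hyperplasia level (−3.23 ± 0.56 SE, adjusted p = 0.0137). Of the 8 members tested, 4 were called at the limit of 100 UMIs per 10000, 3 of them higher. The fit of the 4 raGFP-Wnt1 libraries only also called 4, with 2 of them higher. Both thus called fewer lower members than the main fit.

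Erbb3 fell to 0.475 of the hyperplasia level in mouse 1 and to 0.0142 in mouse 2, where 5 UMIs were left (−3.51 ± 1.02 SE, adjusted p = 0.0446). With the mouse as a block it was −2.80 and not called (adjusted p = 0.0780), and edgeR gave −2.57 (adjusted p = 0.0963). Without tumour 2 the size of the Erbb3 fall was 1.61 (adjusted p = 0.0537). Erbb2 showed a log2 fold change of 0.19 ± 0.18 (SE, adjusted p = 0.441), with mouse ratios of 1.29 (1.15 to 1.45) and 1.02 (0.912 to 1.13).

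Markers of other cells did not all stay level between hyperplasia and tumour. Summed over their lists of 4 or 5 genes, luminal markers were 1.14 to 3.75 CPM in tumours and 19.9 to 59.0 in hyperplasia, Schwann markers 2.05 to 10.0 against 19.0 to 25.3, and keratinocyte markers 22.3 to 38.3 against 60.4 to 151. Krtdap, on the keratinocyte list, was also among the leading genes of progenitor fibroblast clusters in both hyperplasia libraries. Basal epithelial markers were 0.644 to 1.12 CPM in tumours and 1.31 to 1.67 in hyperplasia. Smooth muscle genes (Myh11, Acta2, Tagln, Lmod1 and Sncg), of which Acta2 and Tagln also mark myofibroblasts, were 687 to 1818 CPM against 4.51 to 6.59 CPM. Epcam and Sox10 were at 0 by the gate. The part of luminal, basal, Schwann, keratinocyte and smooth muscle genes in the member results was not tested.

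Of 44 pathway genes tested, 9 were higher and 6 lower in tumours, shares near the 15.4% and 13.9% of all genes. The ETS factor gene Etv4 rose by 3.11 on the log2 scale, from 1.81 to 2.46 CPM in hyperplasia to 12.1 to 28.2 CPM. Rhbdf2, whose product carries the ligand-shedding protease ADAM17 to the cell surface, rose by 2.90, from 0.779 to 0.884 CPM to 5.69 to 6.92 CPM. The cyclin gene Ccnd1 rose by 1.63 and Ier3 by 1.27. In the other direction Nrg2 fell by 2.11, Spry4 by 1.54, and the immediate early genes Egr1 and Fos by 1.46 and 1.18. Nrg2 and Spry4 had been higher in hyperplasia than in normal glands, and both comparisons share the hyperplasia libraries.

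Across fibroblast classes the members had preferred places. Classes with at least 100 barcodes in a library were compared with the level of the whole library, as a description. Egfr was above the library level in clusters named preadipocyte in 11 of 11 libraries (median ratio 1.44), though those of the tumours were led by unlike genes (Scg3, Calca and Fabp4 in tumour 1 and Inmt, Lsamp and Enpp2 in tumour 2), and below it in adipogenesis-regulatory fibroblasts in 11 of 11 (median 0.711). Tgfa was the reverse, above the library level in adipogenesis-regulatory fibroblasts in 11 of 11 libraries (median 5.74), at 2.87 to 9.60 CPM. No cluster of either tumour library was named adipogenesis-regulatory. Erbb3 was highest in progenitors, above the library level in 12 of 13 libraries (median 2.69), the exception being tumour 2 with 0 UMIs in its progenitor cluster. The progenitor class of lactation includes a cluster of 547 barcodes led by the milk genes Csn2, Wap and Csn1s1. Progenitors of hyperplasia held 9.93 and 13.3 CPM of Erbb3 and those of tumour 1 held 4.15 CPM. Ereg was above the library level in ECM remodelling fibroblasts in 10 of 10 libraries (median 3.78), at 3.31 to 53.0 CPM. Erbb2 showed no class with a median ratio over 1.14.

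**Figure D3:**
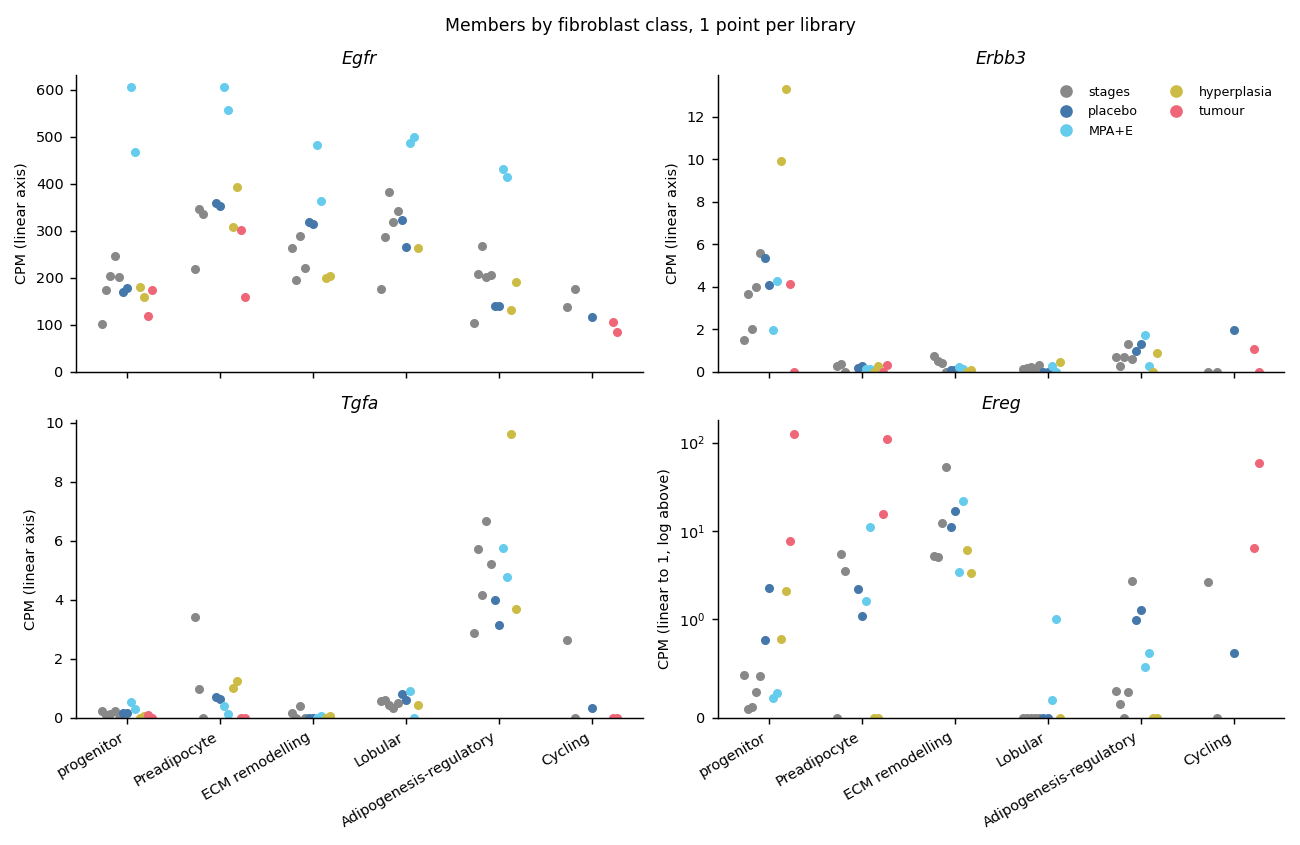
Levels of Egfr, Erbb3, Tgfa and Ereg (CPM, with Ereg on an axis that is linear to 1 and logarithmic above) in fibroblast classes of at least 100 barcodes, 1 point per library, coloured by group. Apart from the tumour points, Erbb3 is highest in progenitors, up to 13.3 CPM in hyperplasia. Tgfa is mostly highest in adipogenesis-regulatory and Ereg in ECM remodelling fibroblasts. Exceptions include Tgfa of puberty (3.40 CPM in preadipocytes against 2.87 CPM) and Ereg of the adult (5.54 CPM in preadipocytes).

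Single clusters carried some ligand genes far above their library. Hbegf in involution was 79.7 CPM in a cluster of 1775 barcodes led by Fabp4 and Adam12, against 29.8 CPM in the rest. Ereg in lactation was 107 CPM in 69 barcodes against 1.53 CPM in the rest, and in hyperplasia 2 it was 73.0 CPM in 147 barcodes against 1.27 CPM. In the placebo libraries most Areg UMIs came from the ECM remodelling cluster (2.22 and 6.73 CPM against 0.183 and 0.506 CPM in the rest), but only 0.339% of its 884 and 0.665% of its 1053 barcodes carried any. The 69 barcodes of lactation, 0.816% of its fibroblasts, gave 49.7% of its Ereg UMIs, and the placebo clusters gave 65.6% and 70.2% of their libraries' Areg UMIs.

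In the tumours the ligand genes did not share one cluster. Nrg1 was highest in 2 alike clusters, at 88.2 CPM in 1034 barcodes of tumour 1 and 74.4 CPM in 459 barcodes of tumour 2, both with Kcnj15, Scube2, C1qtnf3 and Camk4 among their leading genes. It was not confined to them. The largest cluster of tumour 1, named myofibroblastic (1635 barcodes), held 73.0 CPM of Nrg1, with a UMI in 35.4% of barcodes. The cluster of 1034 barcodes was also the Hbegf cluster of tumour 1, with 118 CPM of Hbegf against 58.7 CPM in the rest. Ereg of tumour 1 was highest in another cluster of 1360 barcodes, at 37.9 CPM against 12.5 CPM. That cluster also held 24 of the 36 Areg UMIs of tumour 1, but in only 0.221% of its barcodes. In tumour 2, Areg, Ereg and Hbegf were all highest in the same cluster of 499 barcodes, led by Hbb-bs, Areg, Mgarp, Slc16a3, Ndufa4l2 and Bnip3. That cluster held 85.0 CPM of Areg against 6.15 CPM elsewhere and 69.9% of the library's Areg UMIs in 11.8% of its barcodes. Its Ereg was 168 CPM against 63.2 and its Hbegf 230 CPM against 136. Without this cluster tumour 2 still had more Areg than any other library.

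**Figure D4:**
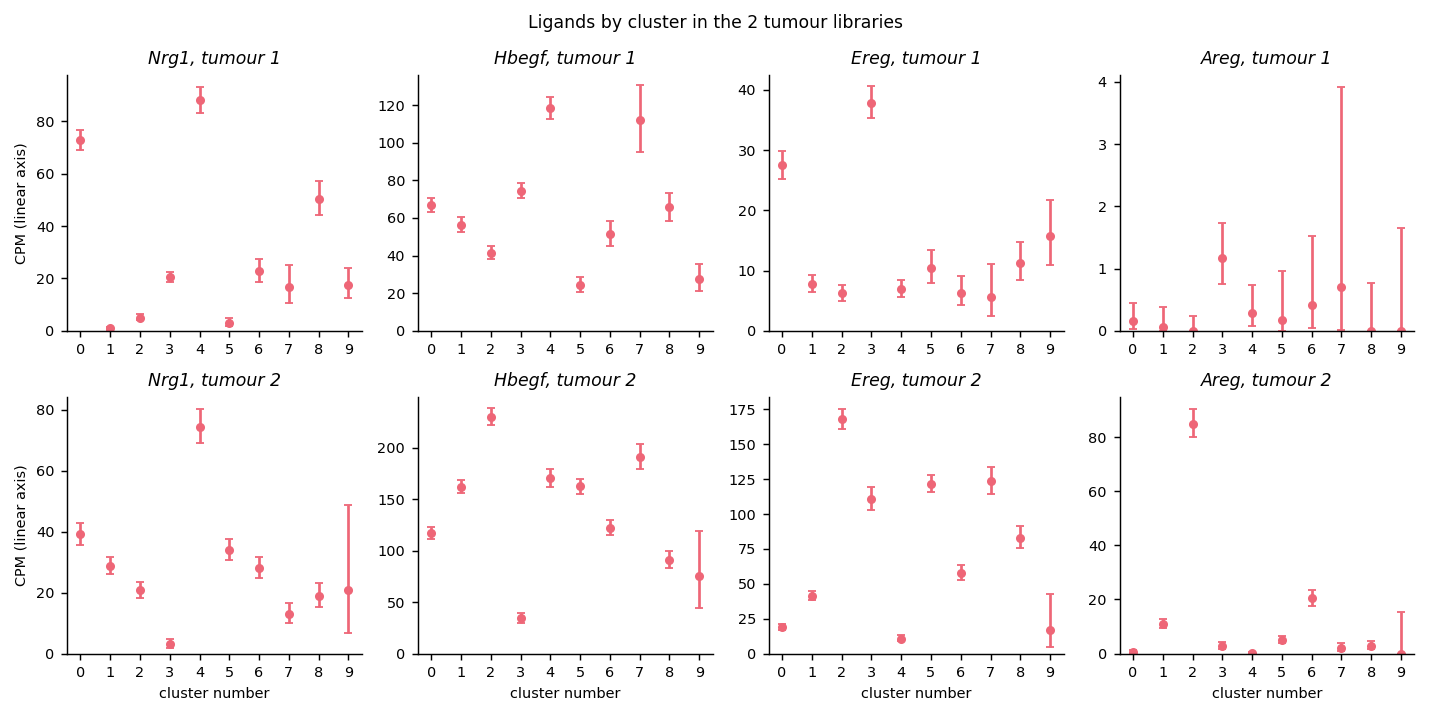
Levels of Nrg1, Hbegf, Ereg and Areg (CPM, linear axes that differ between panels) in each cluster of at least 100 fibroblast barcodes of tumours 1 and 2, with exact 95% Poisson intervals; cluster numbers are independent in the 2 libraries. Nrg1 peaks in cluster 4 of both, and in tumour 2 Areg, Ereg and Hbegf all peak in cluster 2, at 85.0, 168 and 230 CPM.

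Progenitor and preadipocyte clusters were named in both hyperplasia and tumours. The study itself found no Cd36+ committed preadipocytes in tumours, so the preadipocyte name there rests only on the marker lists used here. In each class the clusters of the 2 tumours were led by unlike genes, so the values stand side by side and may not be of like cells. In progenitors Ereg was 0.799 and 2.11 CPM in hyperplasia and 7.74 and 123 CPM in tumours. Nrg1 in progenitors was 0 and 0.136 CPM in hyperplasia and 0.899 and 13.1 CPM in tumours. Hbegf in progenitors overlapped, at 55.1 and 68.9 CPM in hyperplasia and 56.4 and 191 CPM in tumours. Egfr in progenitors also overlapped, at 181 and 160 CPM in hyperplasia and 119 and 174 CPM in tumours. In preadipocyte clusters Ereg had no UMI in either hyperplasia library and 15.7 and 111 CPM in tumours, Nrg1 overlapped (1.55 and 5.41 against 17.5 and 3.14 CPM) and Egfr was 307 and 392 CPM in hyperplasia and 302 and 159 CPM in tumours.

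Epithelial against fibroblast barcodes of the same library placed the members by cell type. The test used 5 libraries with 30 to 420 epithelial barcodes each (adult, pregnancy, placebo 2, MPA+E 1 and MPA+E 2) and a term for the library in edgeR. In that order the luminal barcodes numbered 3, 34, 2, 21 and 4 and the basal ones 28, 386, 104, 9 and 48. The epithelial values are thus mostly those of basal cells, except in MPA+E 1, and their ranges also reflect this mix. Of 8 members tested, 6 were higher in epithelium and 1 lower, where 17.2% and 24.3% of all 13647 genes tested were, and 41.5% were called in all. The ranges of the cell types did not overlap for 4 of the 8 (Egfr, Erbb3, Nrg1 and Areg), as for 33.2% of all genes. The gates used Epcam and fibroblast genes, none of which is a member.

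Areg showed the widest gap, at 3.64 to 995 CPM in epithelial and 0.0421 to 1.44 CPM in fibroblast barcodes (log2 fold change 8.72 ± 0.92 SE, adjusted p = 1.25e-05, edgeR). Nrg1 was 64.9 to 493 against 0.474 to 7.66 CPM (6.55 ± 0.43 SE, adjusted p = 3.70e-07, edgeR). The highest fibroblast Nrg1 value was that of pregnancy, and without the clusters of other cell types the highest of these libraries was MPA+E 2 at 2.91 CPM, with Areg in pregnancy at 0.0216 CPM. Erbb3 was 5.32 to 127 CPM in epithelium and at most 1.50 CPM in fibroblasts, a log2 fold change of 4.03 ± 0.69. For these 3 genes each of the 5 libraries showed the higher value in its epithelial barcodes.

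Tgfa was higher in epithelium in 4 of 5 libraries (3.95 ± 0.66 SE), Ereg in 5 of 5 (3.22 ± 0.36 SE) and Hbegf in 5 of 5 (1.51 ± 0.33 SE), with adjusted p of 4.94e-04, 2.17e-05 and 0.00319 by edgeR. Hbegf and Erbb3 lost their call when the barcodes with the highest doublet scores were removed, at log2 fold changes of 1.27 and 3.23 (adjusted p = 0.0580 and 0.0650, edgeR). With the raGFP-Wnt1 libraries added, 6 of the 8 members were called, 5 of them higher. Egfr was the reverse of the other members, at 26.1 to 59.3 CPM in epithelium and 243 to 526 CPM in fibroblasts (−3.12 ± 0.28 SE, adjusted p = 3.62e-06, edgeR). Erbb2 had a log2 fold change of −0.02 ± 0.60 (SE, adjusted p = 0.988, edgeR), from 36 epithelial UMIs in all.

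Of 43 pathway genes tested in epithelium, 13 were higher and 13 lower, where 17.2% and 24.3% of all genes were. The EGFR ligand gene Epgn had a log2 fold change of 7.94, at 6.76 to 59.4 CPM against at most 0.176 CPM in fibroblasts, and the phosphatase genes Dusp4, Dusp5 and Dusp6 rose by 3.48, 2.71 and 2.45 on the log2 scale. Etv4 rose by 3.20, Rhbdf2 by 3.16 and Ccnd1 by 2.46, whereas Egr1 fell by 2.48, from 4076 to 5038 CPM in fibroblasts to 596 to 1387 CPM.

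The epithelial ligands were split between both layers of the epithelium, read as sums over all libraries with counting intervals only. Areg was 729 CPM (676 to 785) in 97 luminal and 8.28 CPM in 783 basal barcodes. Nrg1 was the reverse, with 274 CPM (261 to 287) in basal and 59.5 CPM in luminal barcodes (171 and 9.76 CPM without pregnancy), and all luminal Nrg1 outside the tumours came from pregnancy. Erbb3, its receptor gene, was luminal, at 91.8 CPM (57.3 CPM without MPA+E 1) against 4.05 CPM in basal barcodes. Ereg was basal (27.2 against 1.04 CPM, the luminal value being 1 UMI in pregnancy), and Hbegf was present in both, at 169 CPM in basal (98.2 CPM without placebo 2) and 115 CPM in luminal barcodes. Erbb2 stood at 27.1 CPM in luminal (9.78 CPM without MPA+E 1) and 6.08 CPM in basal barcodes. Luminal Areg was not detected in pregnancy, with 0 UMIs in 34 barcodes (upper limit 15.3 CPM), and had 0 UMIs in the 5 and 16 luminal barcodes of hyperplasia 1 and 2, against 2255 CPM in 3 adult and 1100 CPM in 21 MPA+E 1 barcodes.

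**Figure D5:**
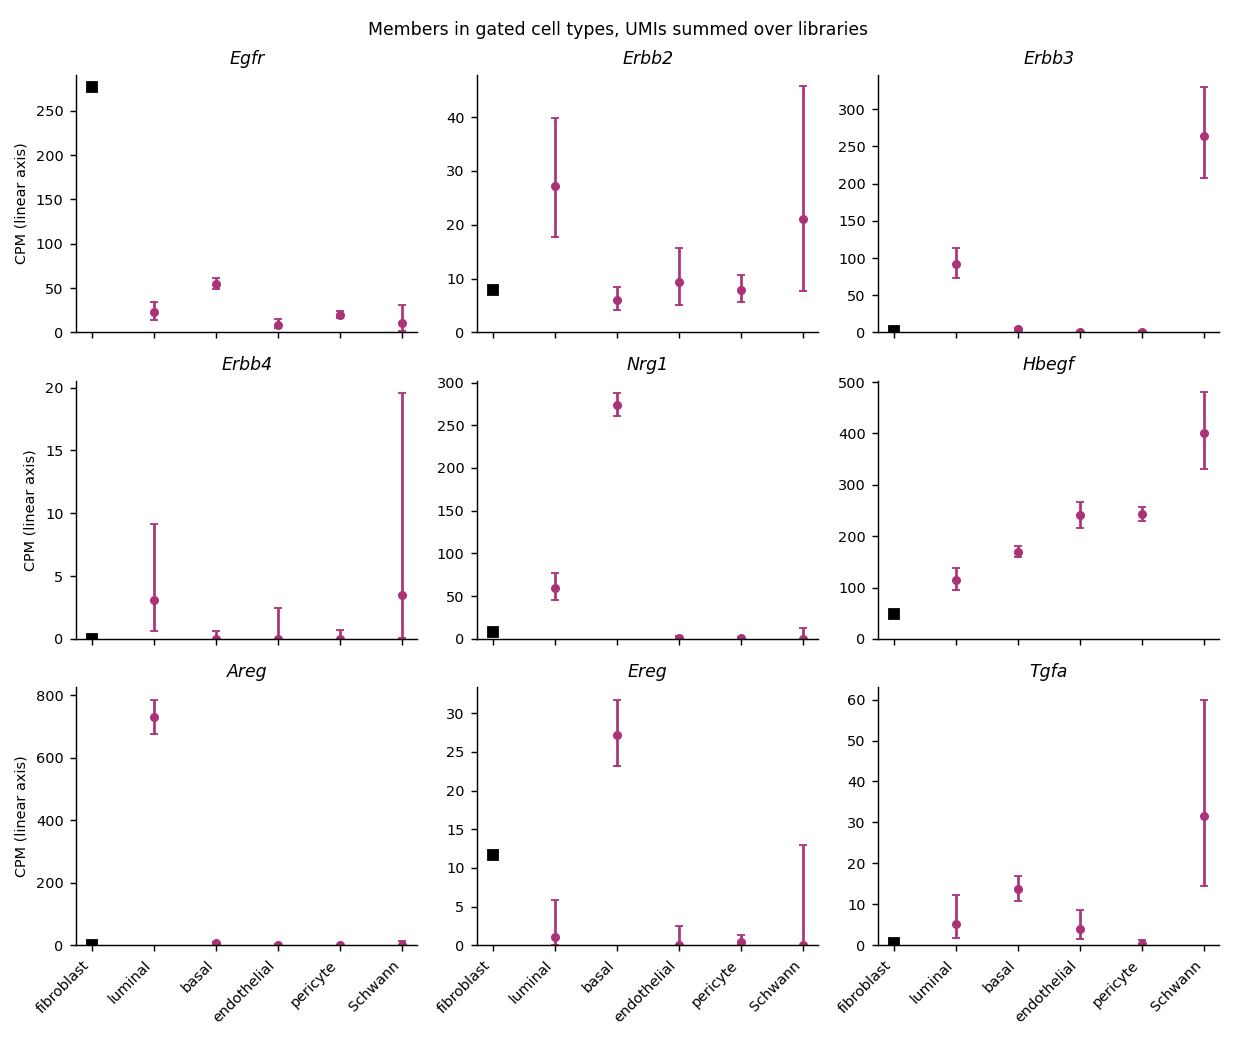
Levels of the 9 genes (CPM, linear axes that differ between panels) in fibroblast, luminal, basal, endothelial, pericyte and Schwann barcodes, with UMIs summed over libraries and exact 95% Poisson intervals (shown for the cells other than fibroblasts). Egfr is highest in fibroblasts, Areg in luminal cells at 729 CPM, Nrg1 in basal cells at 274 CPM, and Erbb3 and Hbegf in Schwann cells at 263 and 400 CPM.

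Egfr and Hbegf were the members with a mean of at least 10 CPM over the 13 libraries for which alike genes were sought among 7865 genes. Over the 13 libraries the log2(CPM + 1) values of Znfx1 (r = 0.938), Ankfy1 (0.931) and Kdm7a (0.929) were most like those of Egfr. For Hbegf they were Npm1 (0.940), the glucose transporter gene Slc2a1 (0.920) and Phpt1 (0.900). These correlations rest on 13 libraries that differ in tissue, strain, sort and depth, and are given as a description.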

How the data were processed

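Fibroblasts of 13 libraries were profiled with the 10x Chromium 3′ v3 chemistry. The authors made the deposited UMI count matrices (unnormalised whole-number counts per gene and barcode) with Cell Ranger 6.1.2 on mm10, per the submitters' processing notes, and the annotation release is not given in the sources used here. Kept were 111246 of 120355 barcodes, those showing 500 to 7500 genes and no more than 10% UMIs of mitochondrial origin, and their counts were summed per library, fibroblasts and epithelium apart. No doublets were removed in the main analysis. As an alternative the 3.86 to 10.6% of kept barcodes per library that lay nearest to simulated doublets were removed, by a score written after the method of Scrublet (which itself was not run) and a share set in advance from the number of barcodes. MPA+E against placebo and epithelium against fibroblasts were tested with edgeR 4.0.16 (quasi-likelihood), and the raGFP-Wnt1 comparisons with limma-voom (limma 3.58.1, R 4.3.3), after TMM scaling and the filterByExpr filter, with a threshold of adjusted p of 0.05 over all genes tested. The study's methods give 2 females for each placebo or MPA+E replicate, so with 2 replicates a group p-values there measure the spread between pools of animals. In the raGFP-Wnt1 comparisons they measure the spread between 2 mice within each group. The difference between puberty and adult, joined as normal in the same fit, also enters that spread. Hyperplasia and tumour libraries with the same number come from the same mouse by the labels (correlation of deviations 0.0954 over 16001 genes). Erbb4 was at or below the floor of 3 UMIs and did not pass the filter. Clusters came from the Leiden method (leidenalg 0.10.2, Python 3.11.15) on variable genes ranked by scanpy 1.11.5.

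Named were the 9 members, at most 8 pathway genes per comparison (the largest changes called, with groups that did not overlap), at most 5 in the stages, and the 3 genes most alike to a member. Some genes that met these rules are not reported here. Members and lists were chosen with earlier results of these data known, and the rules for naming classes, the clusters of other cell types and the smooth muscle list were set after the cluster tables were seen. Alternatives were DESeq2 1.42.0, other scaling, no filter, a replicate block, other limits on barcodes, the highest doublet scores removed, and each library left out. The fits were tested on simulated data with set changes. Log2 changes of 1 were recovered in 53.5% (MPA+E), 9.28% (tumour), 5.21% (hyperplasia) and 34.7% (epithelium) of cases. For log2 changes of 2 these shares were 89.8%, 76.3%, 72.4% and 74.0%.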

Additional observations from a re-analysis of the deposited data

How the results depend on the processing

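Under MPA+E, DESeq2 called 1358 genes and 2 members and the fit with the replicate block 2451 genes and 2 members (Egfr and Nrg1 in both), against 678 and 1. These libraries share only a number (correlation of deviations 0.396 over 15642 genes, 2 pairs). Leaving out 1 library gave 22 to 900 genes and 0 to 3 members there, 242 to 7120 genes and 1 to 7 members for tumour against hyperplasia, and 1 to 183 genes for hyperplasia against normal. The mouse as a block changed only the calls of Areg and Erbb3 among members of the tumour comparison. Directions that turned all belonged to values that were not called. With 1 library left out under MPA+E, Hbegf ran from −0.95 to 0.30, Areg from −1.40 to 0.37 and Ereg from −0.92 to 1.08. For hyperplasia against normal, Egfr ran from −0.14 to 0.58 and Erbb2 from −0.16 to 0.17, and for epithelium Erbb2 from −1.04 to 0.29, with 0.091 when 2 Epcam UMIs were required. The cause was not tested. Of the other member values, 86 of the MPA+E, 83 of the tumour, 85 of the hyperplasia and 104 of the epithelial comparison kept direction and side of the threshold. The count of members 2-fold apart between stages held under all 6 alternatives, among them the removal of clusters of other cell types, which was chosen after seeing the data, as were the sums over other cells without 1 library. Low UMI totals limit Erbb4, Tgfa, Areg and Erbb3 most. Under MPA+E, the 43 pathway genes gave 0 calls in edgeR, 5 in DESeq2 and 12 with the block.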

Other observations

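Outside the epithelium and the fibroblasts, Hbegf and Erbb3 had other strong sources in the same suspensions. Schwann barcodes (85 over 9 libraries) held 263 CPM of Erbb3 (exact 95% interval 207 to 330 CPM), 400 CPM of Hbegf and 31.6 CPM of Tgfa (17.9 CPM without MPA+E 1), with no UMI of Nrg1, Areg or Ereg. Endothelial barcodes (544) held 240 CPM of Hbegf and 8.65 CPM of Egfr (5.41 CPM without hyperplasia 1), and pericyte barcodes (1194) 244 CPM of Hbegf and 20.2 CPM of Egfr. In puberty a cluster of 41 fibroblast barcodes with Schwann markers carried Erbb3 at 43.1 CPM.

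The UMIs per fibroblast barcode that held at least 1 were 4.59 for Ereg, 3.59 for Egfr, 2.93 for Hbegf, 2.32 for Nrg1 and 1.08 for Tgfa. Areg exceeded all of these, with 1533 of its UMIs in tumour 2. In tumour 2 Egfr was found in 82.0% of barcodes with an Ereg UMI and in 71.7% of the rest, whose median depths were 25255 and 18964 UMIs.

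Epithelial barcodes are the few that passed a sort against CD24+ and lineage-positive cells in 9 libraries and a sort for GFP+ cells in the raGFP-Wnt1 libraries. With 2 libraries a group and 1 per stage, and with transcripts counted from their 3′ ends, isoforms, protein and ligand release were not measured. Depth, strain, sort and age differ between the normal and the raGFP-Wnt1 libraries. The class names were rebuilt from marker lists and not taken from the authors' annotation.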
